A study of Mus musculus with 35 samples.

Results

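The genes described here are 9 ligands and receptors of vessel growth and vessel stability: the VEGF ligands Vegfa, Vegfc and Pgf, their receptors Kdr, Flt1 and Flt4, the angiopoietins Angpt1 and Angpt2, and the angiopoietin receptor Tek. They were chosen by symbol from the 54532 genes in the files, and each of the 9 symbols matched 1 gene. All 9 passed the filter on low counts in every comparison. RNA was from whole lungs of adult mice, at least 3 months old, held for 6 weeks either in normal air (normoxia) or under 10% oxygen (hypoxia). Control mice were B6/129SJ2 wildtype, Cav1-KO mice carried the global Cav1(tm1Mls/)J knockout of caveolin-1, and Cav1-RC mice carried the same knockout with caveolin-1 put back in endothelial cells only. Each genotype was studied in females and males at both oxygen levels, which gives 12 groups and 34 libraries, 3 per group save for the normoxic females of Cav1-KO and of Cav1-RC, with 2 each. The deposit holds 1 further library whose group its label leaves uncertain, and it entered no comparison.

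In the VEGF family, Vegfa binds both Kdr (VEGF receptor 2), the main signalling receptor of blood endothelium, and Flt1 (VEGF receptor 1), which binds more tightly, signals weakly and can act as a decoy. Pgf, placenta growth factor, binds Flt1 only, and Vegfc is the main ligand of Flt4 (VEGF receptor 3), the receptor of lymphatic and some capillary endothelium. Angpt1, made by cells around vessels, activates the endothelial receptor Tek (Tie2) and keeps vessels quiet, while Angpt2, made by endothelial cells themselves, often opposes it. In the lung, the alveolar epithelium is a major source of Vegfa, and low oxygen is known to raise Vegfa and Flt1 transcription through hypoxia-inducible factors in many cells.

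Before the results, 3 properties of the libraries need to be stated. Total counts on genes ranged from 12425535 to 33343006 per library (median 18015172.5), and the members had between 77 (Pgf) and 49629 (Vegfa) counts in a library. Of the 34 grouped libraries, 12 come from mice whose numbers also occur in the study's source data for its western blots, and this western blot list covers all 6 libraries of Cav1-KO hypoxia, all 3 of male Control hypoxia, and replicate 1 of the female groups Control normoxia, Control hypoxia and Cav1-RC normoxia. The other 22 are not on it. The number of the library of uncertain group, which its label gives as possibly female, Cav1-KO and normoxic, also occurs there, under that same group. Of 18 libraries labelled male, 3 (male Control hypoxia replicate 2 and male Cav1-RC normoxia replicates 1 and 2) had 752 to 874 CPM of Xist and at most 0.383 CPM of the Y-linked Ddx3y, against at most 4.27 and at least 83.7 CPM in the other 15, and groups follow the labels throughout. Among libraries labelled female, Ddx3y was 7.86 CPM in Cav1-KO hypoxia replicate 2 (Xist 714 CPM) and at most 1.04 CPM in the other 15. Cav1 had 989 to 1360 CPM in Control, 1.61 to 4 CPM in Cav1-KO and 1.48 to 6.56 CPM in Cav1-RC, so at the mRNA level the mouse Cav1 gene was as low in Cav1-RC as in Cav1-KO, and the cause was not tested. The alveolar type 2 markers (7 genes, Sftpc among them) summed to between 10200 and 26200 FPKM in every condition, as the lung label requires.

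Levels are given as FPKM, read fragments scaled by gene length and by library depth, which allows comparison between genes. Vegfa was the highest of the 9 with a median of 289 FPKM over the 34 libraries (range 137 to 435). Among the receptors, Tek had a median of 66.4 FPKM (38.7 to 96.9), Kdr of 41.9 (15.3 to 60.8), Flt1 of 20.3 (9.91 to 32.1) and Flt4 of 9 (5.09 to 13.4). The other ligands were lower than Vegfa, with a median of 14.1 FPKM for Angpt1 (8.99 to 20.3), 12.4 for Vegfc (5.46 to 19.5), 4.73 for Angpt2 (2.41 to 8.16) and 2.6 for Pgf (1.62 to 5.78). With the 6 conditions (genotype and oxygen) put in order of their means for each gene, every neighbouring pair of conditions overlapped in its libraries.

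**Figure D1:**
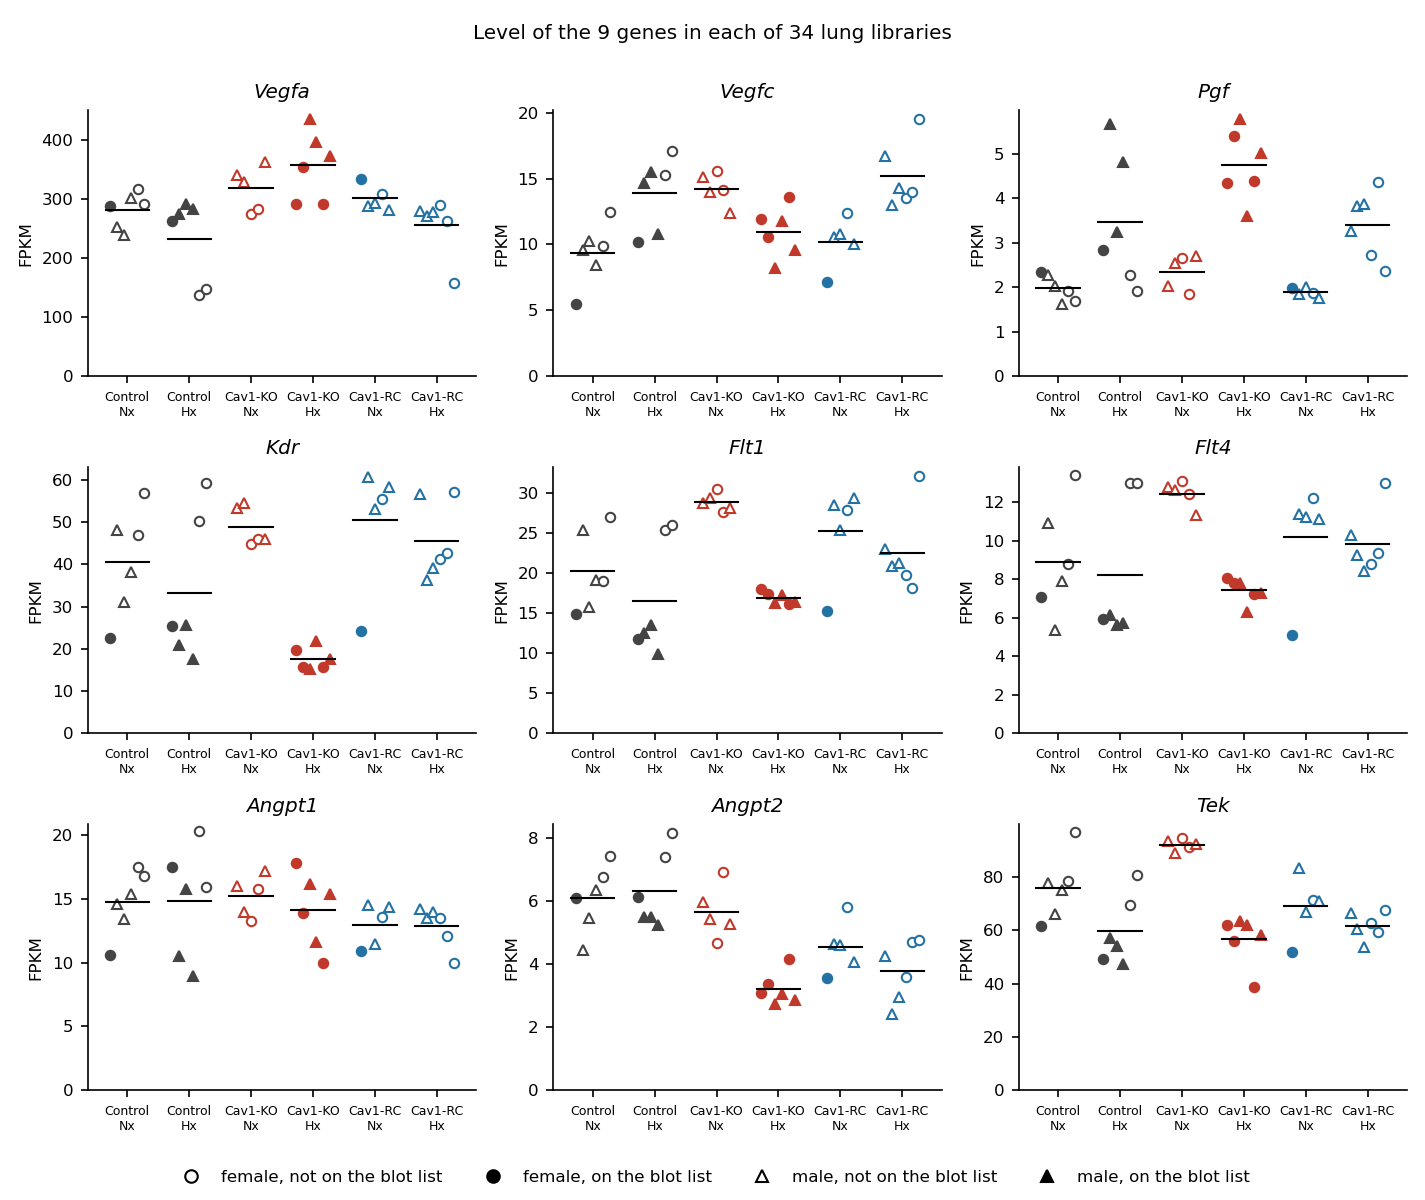
Level of each of the 9 genes in FPKM (linear axes from 0) in the 34 libraries, by genotype and oxygen (Nx, normoxia; Hx, hypoxia). Each point is 1 library, circles are females, triangles are males, filled points are libraries on the western blot list, and black lines are condition means; Kdr lies between 15.3 and 25.7 FPKM in every filled point and between 31.1 and 60.8 in every open point.

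Promoters are shown for 4 members because transcription under low oxygen acts through hypoxia response elements, short motifs bound by hypoxia-inducible factors, and Vegfa is their best-known target in this family, while Kdr, Flt1 and Pgf differed with oxygen in at least 1 genotype and had a match. Vegfc, Flt4 and Tek differed with oxygen in Cav1-KO too, and their promoters had 0 matches. Promoter sequence from RefSeq (GRCm38.p6, the same build as mm10) was found for 7 of the 9 members, with 9 promoters in all, and none is shown for Angpt1 and Angpt2. Windows of 300 bases, from 250 before to 50 after each start, were searched on both strands for ACGTG and GCGTG, the core letters of a hypoxia response element, which are in capitals and read GCGTG or, on the other strand, CACGC. Kdr had 2 matches, 131 and 89 bases before its start, Flt1 had 1 at 184 and Pgf 1 at 124, of which the letters around the match are shown. Vegfa had none before the first of its 2 starts, shown here, and 2 matches before the other. In all, 4 of the 9 promoters held a match, against 43.8% of the 32851 promoters in the table (19.6% with ACGTG, 32.4% with GCGTG). A match is a description of letters, not a site, and sequence more than 250 bases before a start was not searched. The printed windows are chr5:75978456-75978705 for Kdr, chr5:147726012-147726261 for Flt1, chr12:85177421-85177449 for Pgf and chr17:46032378-46032627 for Vegfa, all on the minus strand.
Kdr: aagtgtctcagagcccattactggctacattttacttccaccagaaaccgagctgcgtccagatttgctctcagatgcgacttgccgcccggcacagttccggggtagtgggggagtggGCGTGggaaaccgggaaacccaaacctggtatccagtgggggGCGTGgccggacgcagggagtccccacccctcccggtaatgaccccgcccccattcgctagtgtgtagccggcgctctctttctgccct
Flt1: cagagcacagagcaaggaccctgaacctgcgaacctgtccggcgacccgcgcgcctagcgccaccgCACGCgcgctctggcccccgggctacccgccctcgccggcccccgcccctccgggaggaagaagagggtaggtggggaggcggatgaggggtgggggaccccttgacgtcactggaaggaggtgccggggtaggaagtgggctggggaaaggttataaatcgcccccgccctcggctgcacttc
Pgf: gccctgcggggtCACGCgcactcaggtct
Vegfa: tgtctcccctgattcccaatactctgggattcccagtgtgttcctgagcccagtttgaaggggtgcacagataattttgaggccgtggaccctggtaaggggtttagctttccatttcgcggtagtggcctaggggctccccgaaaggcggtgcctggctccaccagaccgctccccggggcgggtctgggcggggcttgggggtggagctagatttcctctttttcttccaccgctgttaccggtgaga

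Kdr was the member whose level did not overlap between libraries on and off the western blot list. It was 15.3 to 25.7 FPKM in the 12 libraries on the list and 31.1 to 60.8 FPKM in the 22 others, without overlap, across genotypes and oxygen levels. The share of all genes that separate in this way was not counted. In female Control normoxia, the library on the list had 22.5 FPKM and the others 47 and 57, and in female Control hypoxia the values were 25.4 against 50.4 and 59.4. In female Cav1-RC normoxia the library on the list had 24.3 FPKM and its only partner 55.6. The other members overlapped between the listed and the other libraries, but within each of these 3 groups Vegfc, Flt1, Flt4, Tek and Angpt2 too were lower in the listed library than in its partners, and Pgf was higher. For Angpt2 the listed library had 6.11 FPKM against 6.78 and 7.43 in female Control normoxia, 6.13 against 7.41 and 8.16 in female Control hypoxia and 3.56 against 5.83 in female Cav1-RC normoxia, a smaller difference than that of Kdr in each group. The library of uncertain group had 16.1 FPKM of Kdr, against 44.8 to 54.6 in the 5 Cav1-KO normoxia libraries, none of which is on the list. What the list stands for beyond the blots is not given in the sources used here. Because all Cav1-KO hypoxia libraries are on it and no Cav1-KO normoxia or Cav1-RC hypoxia library is, those conditions and the list cannot be told apart within these pairs, and values from a single model of all 34 libraries that includes list membership (called the list term) are given beside the results. Only the female groups Control normoxia, Control hypoxia and Cav1-RC normoxia hold libraries both on and off the list. The list term is estimated from these 3 groups alone, with 1 listed library in each. Its values for Cav1-KO and for males carry that estimate over, which could not be checked there.

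Differences were tested with edgeR's quasi-likelihood test, pooling the sexes by averaging their log2 fold changes, and a gene was called at a Benjamini-Hochberg adjusted p under 0.05 over all genes tested. Replicates are separate mice by their labels. In normoxia, 1 of the 9 members was called in Cav1-KO against Control, where 13.2% of all genes were called, 2 in Cav1-RC against Cav1-KO (9.38% of all genes) and 0 in Cav1-RC against Control (3.33% of all genes), where 1 member had an unadjusted p under 0.05 and DESeq2 called 0. In hypoxia, 3 members were called in Cav1-KO against Control (14.7% of all genes), 6 in Cav1-RC against Cav1-KO (52.6%) and 1 in Cav1-RC against Control (9.06%). For hypoxia against normoxia, 0 members were called in Control by edgeR (1.44% of all genes), where 3 had an unadjusted p under 0.05 and DESeq2 called 1, 7 were called in Cav1-KO (61.7%) and 1 in Cav1-RC (2.17%). With the list term the Cav1-KO count fell from 7 to 0, where the share of all genes called fell from 61.7% to 1.22%, and the count in hypoxic Cav1-RC against Cav1-KO from 6 to 0, where it fell from 52.6% to 7.98%. In these fits 3 and 4 members had an unadjusted p under 0.05. Other counts rose with the list term: hypoxia in Control went from 0 to 3 and normoxic Cav1-KO against Control from 1 to 2. In the comparisons with 61.7% and 52.6% of all genes called, the members' shares are near the background. Without female Cav1-KO hypoxia replicate 2, the library with 7.86 CPM of Ddx3y, the hypoxic Cav1-KO against Control comparison had 1 member called, Angpt2, in place of 3 (5.34% of all genes), hypoxic Cav1-RC against Cav1-KO had 5 in place of 6 (47.4%), and hypoxia in Cav1-KO had 7, as with it (59.9%).

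**Figure D2:**
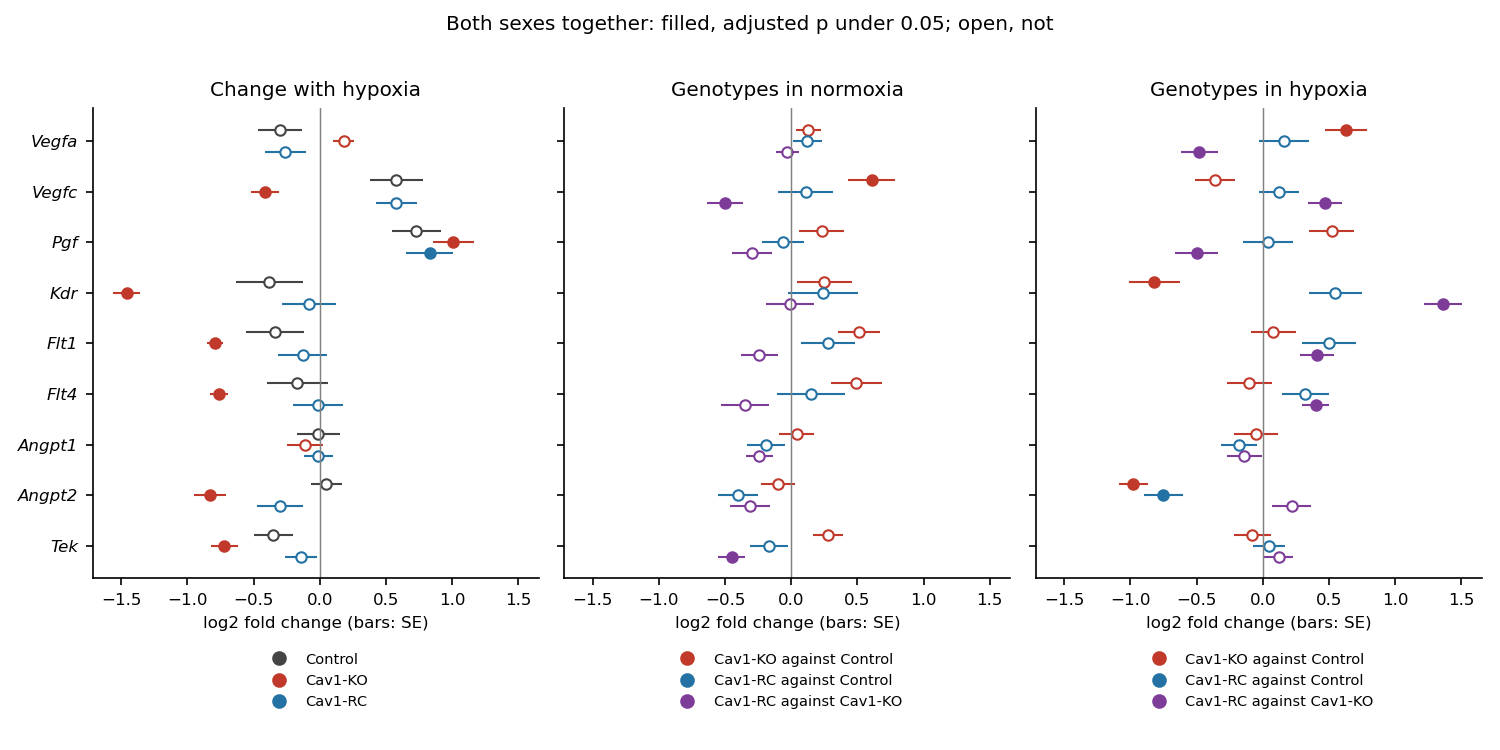
Log2 fold change of the 9 genes (x axis; bars are standard errors) for both sexes together, in 3 panels for the change with hypoxia, the genotypes in normoxia and the genotypes in hypoxia. Filled points have an adjusted p under 0.05 in edgeR; Angpt2 is low in both Cav1-KO and Cav1-RC against Control in hypoxia, and Pgf lies at 0.73 to 1.01 with hypoxia in all 3 genotypes.

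Among the ligands, Vegfa (ENSMUSG00000023951, mm10 chromosome 17 from 46016993 to 46032369, minus strand) was called between genotypes, and over all libraries in no comparison of hypoxia with normoxia. Its FPKM was 137, 269 and 291 (lowest, median, highest of 6) in Control hypoxia, 291, 363 and 435 in Cav1-KO hypoxia and 157, 273 and 289 in Cav1-RC hypoxia. Control and Cav1-KO met at 291 FPKM, and all Cav1-RC libraries lay below all Cav1-KO ones. Vegfa was higher in Cav1-KO than in Control by 0.63 on the log2 scale (SE 0.159, adjusted p = 0.026), and lower in Cav1-RC than in Cav1-KO (log2 fold change -0.48, SE 0.141, adjusted p = 0.0126). The first difference kept its call without 4 of the 12 libraries, left out singly, and had adjusted p of 0.0506 to 0.0698 without the others. It was 0.53 with the list term (adjusted p = 0.00631) and 0.36 among the listed libraries alone (adjusted p = 0.116), while Cav1-RC against Cav1-KO was -0.13 with the list term (adjusted p = 0.751). The lowest Vegfa values, 137 and 147 FPKM, came from the 2 female Control hypoxia libraries that are not on the list, and the third had 263. Among libraries not on the list, Vegfa in Control females fell with hypoxia by 1.14 on the log2 scale (SE 0.163, adjusted p = 0.00823; 2 libraries a group). Hypoxia against normoxia gave Vegfa log2 fold changes of -0.30 (Control), 0.18 (the knockout) and -0.26 (Cav1-RC), with adjusted p of 0.479, 0.0662 and 0.487. In normoxia Vegfa was called in males alone, lower in Cav1-RC than in Cav1-KO by log2 -0.26 (adjusted p = 0.0308), a call kept without 2 of the 6 libraries, left out singly. The call was lost with replicate number as a block (-0.26, adjusted p = 0.0658). In 1 fit over 34 libraries the difference was -0.27 without the list term (adjusted p = 0.802) and with it (adjusted p = 0.583).

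Vegfc (ENSMUSG00000031520, chromosome 8 from 54077606 to 54187096, plus strand) was called between genotypes in normoxia in 2 comparisons of both sexes, in 1 of them together with Tek. Its 5 Cav1-KO normoxia libraries had 12.4 to 15.6 FPKM (14.2 ± 1.22, mean ± SD), the 6 Control ones 5.46, 9.72 and 12.5 (lowest, median, highest) and the 5 Cav1-RC ones 7.17 to 12.4. Cav1-KO overlapped with Control in 1 Control library only, and lay at or above every Cav1-RC library. The log2 fold change was 0.61 in Cav1-KO against Control (SE 0.178, adjusted p = 0.0461) and -0.50 in Cav1-RC against Cav1-KO (SE 0.133, adjusted p = 0.0417). Neither call was firm: the first was kept only without female Control normoxia replicate 1 or 3, with adjusted p of 0.053 to 0.152 without any other library, and the second only without either female Cav1-RC normoxia library, with 0.0662 to 0.164 otherwise. Among the libraries not on the list, the differences were 0.48 (adjusted p = 0.00847) and -0.34 (adjusted p = 0.0166), and with the list term 0.53 (adjusted p = 0.00333) and -0.34 (adjusted p = 0.149). With hypoxia, Vegfc had log2 fold changes of 0.58 in Control (adjusted p = 0.207) and 0.58 in Cav1-RC (adjusted p = 0.0824), and it fell by 0.41 on the log2 scale in Cav1-KO (SE 0.106, adjusted p = 0.00559). With the list term these were 1.02 (adjusted p = 2.33e-05), 0.40 (adjusted p = 0.0572) and 0.41 (adjusted p = 0.311), so the sign in Cav1-KO turned. In hypoxia Vegfc was higher in Cav1-RC (13 to 19.5 FPKM) than in Cav1-KO (8.2 to 13.6 FPKM), with overlap, by 0.47 on the log2 scale (SE 0.126, adjusted p = 0.00759), a call kept without each of the 12 libraries in turn, and -0.35 with the list term (adjusted p = 0.265).

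Pgf (ENSMUSG00000004791, chromosome 12 from 85166635 to 85177790, minus strand) had positive changes with hypoxia in all 3 genotypes. It had 1.62 to 2.35 FPKM in Control normoxia, 1.84 to 2.71 in Cav1-KO normoxia and 1.75 to 2.01 in Cav1-RC normoxia, against 1.91, 3.04 and 5.67 (lowest, median, highest), 3.6, 4.71 and 5.78, and 2.36, 3.55 and 4.37 in hypoxia. Normoxia and hypoxia did not overlap in Cav1-KO and Cav1-RC, and overlapped in Control, where the 3 hypoxic females had 1.91 to 2.84 FPKM and the 3 hypoxic males 3.25 to 5.67. Pgf rose with hypoxia by 1.01 on the log2 scale in Cav1-KO (SE 0.155, adjusted p = 0.000146) and by 0.83 in Cav1-RC (SE 0.178, adjusted p = 0.037), and its log2 fold change was 0.73 in Control (SE 0.186, adjusted p = 0.0848), or 0.84 without male Control hypoxia replicate 2, whose Xist goes against its label (adjusted p = 0.0315). With the list term the values were 0.67 in Cav1-KO (adjusted p = 0.214), 0.91 in Cav1-RC (adjusted p = 0.00301) and 0.58 in Control (adjusted p = 0.0332). Without any 1 of the 6 male Cav1-RC libraries or female Cav1-RC normoxia replicate 1, Cav1-RC had adjusted p of 0.0502 to 0.0963, and without the libraries whose Xist goes against their label it was 0.89 with an adjusted p of 0.322. The changes did not differ between genotypes by the test of the difference itself, with adjusted p of 0.435 for Cav1-KO minus Control, 0.537 for Cav1-RC minus Cav1-KO and 0.929 for Cav1-RC minus Control. In hypoxia Pgf was also lower in Cav1-RC than in Cav1-KO (log2 fold change -0.50, SE 0.165, adjusted p = 0.0225), a difference of -0.16 with the list term (adjusted p = 0.759), which had adjusted p of 0.0517 to 0.0608 without male or female Cav1-RC hypoxia replicate 1, female Cav1-KO hypoxia replicate 2 or male Cav1-KO hypoxia replicate 1.

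The 3 VEGF receptors are endothelial genes, and in bulk lung RNA fewer endothelial cells and less RNA per cell cannot be told apart. Kdr (ENSMUSG00000062960, chromosome 5 from 75932827 to 75978458, minus strand) had 44.8 to 54.6 FPKM in the 5 Cav1-KO normoxia libraries and 15.3, 16.8 and 21.9 (lowest, median, highest) in the 6 Cav1-KO hypoxia ones. In Cav1-RC hypoxia it had 36.3, 41.9 and 57.1 FPKM, above every Cav1-KO hypoxia library. Kdr fell by 1.46 on the log2 scale with hypoxia in Cav1-KO (SE 0.102, adjusted p = 5.87e-07), and was higher in Cav1-RC than in Cav1-KO in hypoxia by 1.36 (SE 0.144, adjusted p = 1.99e-05). Under the list term the same values were -0.30 (adjusted p = 0.529) and 0.19 (adjusted p = 0.61). Against Control in hypoxia, Kdr was lower in Cav1-KO by log2 -0.82 (SE 0.191, adjusted p = 0.0197), a difference of -0.39 with the list term (adjusted p = 0.0469) and of -0.41 among listed libraries alone (adjusted p = 0.17). That call was lost without female Control hypoxia replicate 2 or 3, female Cav1-KO hypoxia replicate 2, or male Cav1-KO hypoxia replicate 1 or 3 (adjusted p of 0.0512 to 0.059). In Control, the log2 fold change of Kdr with hypoxia was -0.38 with the sexes averaged (SE 0.252, adjusted p = 0.585). All 3 hypoxic Control males and none of the normoxic ones are on the list. Among Control females not on the list it was 0.04 (SE 0.172, adjusted p = 0.884; 2 libraries a group).

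Flt1 (ENSMUSG00000029648, chromosome 5 from 147561604 to 147726011, minus strand) and Flt4 (ENSMUSG00000020357, chromosome 11 from 49609263 to 49652739, plus strand) moved in the same direction as Kdr, by less, with hypoxia in Cav1-KO and in hypoxic Cav1-RC against Cav1-KO. In Cav1-KO, Flt1 went from 27.6 to 30.5 FPKM in normoxia to 16.1 to 18 FPKM in hypoxia, and Flt4 from 11.3 to 13.1 to 6.3 to 8.07 FPKM, neither with overlap. The log2 fold changes were -0.79 for Flt1 (SE 0.0583, adjusted p = 8.46e-07) and -0.76 for Flt4 (SE 0.0673, adjusted p = 2.57e-06). In hypoxia, Cav1-RC lay above Cav1-KO by 0.41 for Flt1 (SE 0.126, adjusted p = 0.0162) and 0.40 for Flt4 (SE 0.104, adjusted p = 0.00621), again without overlap. All 4 values changed sign with the list term, to 0.07, 0.21, -0.46 and -0.58, with adjusted p of 0.914, 0.692, 0.166 and 0.0839. Among the listed libraries of hypoxia alone, Flt1 was higher in Cav1-KO than in Control by 0.50 (SE 0.104, adjusted p = 0.0399), while over all libraries it differed by 0.08 (adjusted p = 0.767), and by 0.41 with the list term (adjusted p = 0.0412). In normoxia Flt1 had 14.9 to 27 FPKM in Control, below Cav1-KO, and was not called over all libraries. Among libraries not on the list that difference was 0.43 (SE 0.14, adjusted p = 0.0599).

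Since Kdr and Flt1 share the ligand Vegfa, their ratio was taken within each library and compared by an exact two-sided permutation test of the libraries within sex, adjusted over the 18 tests of 2 ratios. The log2 ratio of Kdr to Flt1 in Cav1-KO hypoxia was -0.16, 0.04 and 0.36 (lowest, median, highest of 6), against 0.75, 0.96 and 1.19 in Control hypoxia and 0.80, 0.97 and 1.30 in Cav1-RC hypoxia. The Cav1-KO hypoxia libraries thus lay below those of both other genotypes, and below the 0.55 to 0.90 of the 5 Cav1-KO normoxia libraries. The difference was -0.91 against Control and 0.96 for Cav1-RC against Cav1-KO (exact permutation p = 0.005 and adjusted p = 0.03 for both), and -0.68 with hypoxia in Cav1-KO (exact permutation p = 0.005, the smallest the design allows, adjusted p = 0.03). Among the listed libraries alone, Cav1-KO hypoxia differed from Control hypoxia by -0.92, as much as over all libraries (exact permutation p = 0.0125, the smallest these libraries allow). Its adjusted p of 0.025 is over the 2 ratios in this 1 comparison, not over the 18 tests. The change with hypoxia in Cav1-KO was -0.74 to -0.63 with each library left out in turn, with adjusted p of 0.06 to 0.1 by the exact permutation test, which has fewer arrangements then. The listed libraries of female Control normoxia and female Cav1-RC normoxia, at 0.59 and 0.68, were also below their partners, while that of female Control hypoxia, at 1.12, was between them.

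**Figure D3:**
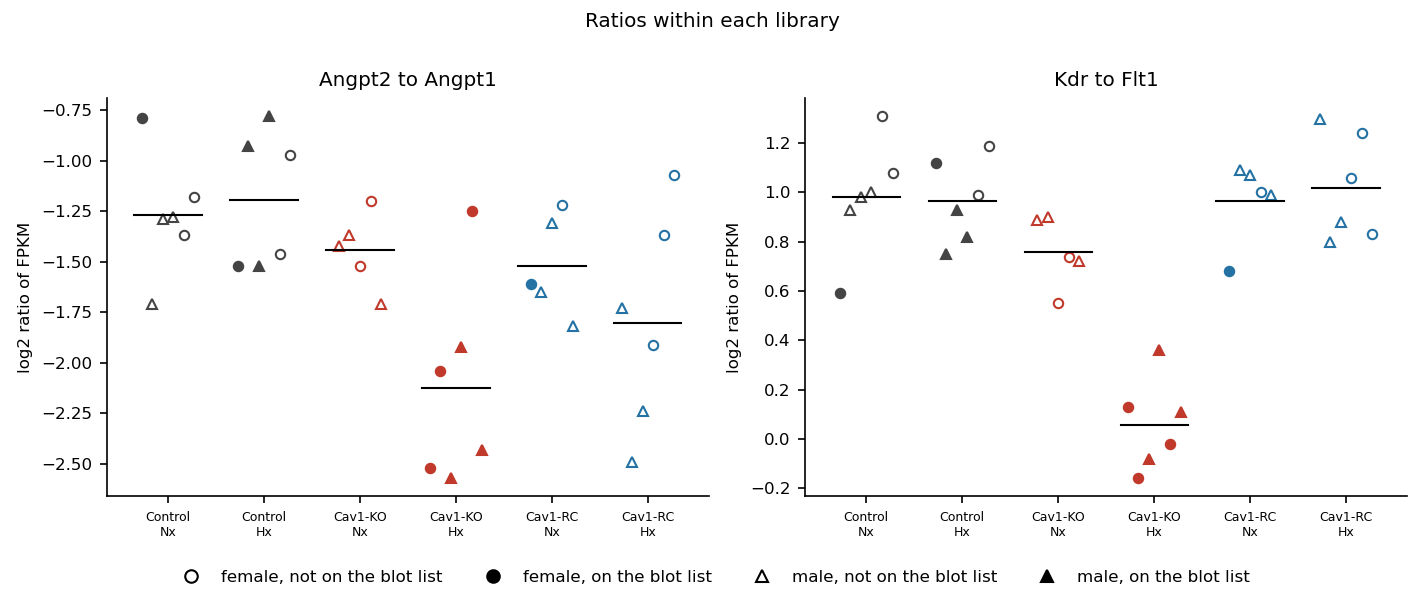
Log2 ratio of Angpt2 to Angpt1 (left) and of Kdr to Flt1 (right), both from FPKM, within each of the 34 libraries by genotype and oxygen (Nx, normoxia; Hx, hypoxia), with the mean as a line and libraries on the western blot list filled. The Kdr to Flt1 ratio of Cav1-KO hypoxia reaches 0.36 at most, below the 0.75 of the lowest Control hypoxia library, which is also on the list.

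The angiopoietin receptor and its ligands differed among themselves. Angpt1 (ENSMUSG00000022309, chromosome 15 from 42424723 to 42676977, minus strand) was called in none of the 39 comparisons by edgeR over all their libraries. Its condition means ran from 12.9 to 15.3 FPKM, and its log2 fold changes in the 9 comparisons of both sexes together from -0.24 to 0.04, with standard errors of 0.103 to 0.167. In female Cav1-RC hypoxia its 3 libraries (10, 12.1 and 13.5 FPKM) lay below the 3 Control ones (15.9, 17.5 and 20.3), with a log2 difference of -0.59 and an adjusted p of 0.263, or -0.74 with the list term (adjusted p = 0.0193). Without male Control hypoxia replicate 2, whose Xist goes against its label, Angpt1 was called in 3 comparisons. It then fell with hypoxia in Control males (log2 fold change -0.55, adjusted p = 0.031) and was higher in Cav1-RC than in Control in hypoxic males (0.50, adjusted p = 0.00446). The latter difference was -1.09 in females minus males (SE 0.209, adjusted p = 0.0375), against -0.82 with that library (adjusted p = 0.198).

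Angpt2 (ENSMUSG00000031465, chromosome 8 from 18690263 to 18741562, minus strand) was lower in both knockout lines than in Control in hypoxia. Control hypoxia had 5.5, 5.5 and 5.25 FPKM in males and 6.13, 7.41 and 8.16 in females. Cav1-KO hypoxia had 2.73, 3.07 and 2.85 FPKM in males and 3.1, 3.38 and 4.18 in females, and Cav1-RC hypoxia had 4.27, 2.41 and 2.97 in males and 3.6, 4.69 and 4.76 in females. Every library of both knockout lines thus lay below every Control one, while the 2 knockout lines overlapped. The log2 fold change was -0.98 for Cav1-KO (SE 0.11, adjusted p = 0.000598) and -0.75 for Cav1-RC (SE 0.144, adjusted p = 0.0124) against Control, and 0.22 for Cav1-RC against Cav1-KO (SE 0.147, adjusted p = 0.231). The 2 first comparisons share the Control libraries. Both calls were kept without each of the 12 libraries in turn, at -1.05 to -0.93 and -0.87 to -0.66, and with the list term, at -0.85 (adjusted p = 0.000121) and -1.01 (adjusted p = 0.000369). Among the listed libraries alone, the 6 of Cav1-KO and the 4 of Control, the difference was -0.86 (SE 0.114, adjusted p = 0.00539). Without male Control hypoxia replicate 2, whose Xist goes against its label, both were called too, at -0.98 and -0.74 (adjusted p = 0.00133 and 0.024).

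In normoxia Angpt2 overlapped between the genotypes, at 4.46 to 7.43 FPKM in Control, 4.66 to 6.91 in Cav1-KO and 3.56 to 5.83 in Cav1-RC. The log2 fold changes against Control were -0.10 in Cav1-KO (adjusted p = 0.601) and -0.40 in Cav1-RC (adjusted p = 0.246). With hypoxia it fell by 0.83 on the log2 scale in Cav1-KO (SE 0.119, adjusted p = 8.98e-05), and its log2 fold changes were 0.05 in Control (adjusted p = 0.911) and -0.30 in Cav1-RC (adjusted p = 0.48). The fall in Cav1-KO was 0.45 in size with the list term (log2 fold change -0.45, adjusted p = 0.286). The change in Cav1-KO minus that in Control was -0.89 (SE 0.168, adjusted p = 0.00509), and -0.70 with the list term (adjusted p = 0.0394). The change in Cav1-RC minus that in Control was -0.33 (adjusted p = 0.622).

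As a ratio within libraries, Angpt2 to Angpt1 was -2.57, -2.24 and -1.25 on the log2 scale (lowest, median, highest) in Cav1-KO hypoxia and -1.52, -1.21 and -0.78 in Control hypoxia. The groups overlapped in 1 Cav1-KO library, female replicate 3. The difference of -0.93 had an exact permutation p of 0.015 and an adjusted p of 0.0675, and none of the 9 comparisons of this ratio passed the adjustment. Without female Cav1-KO hypoxia replicate 3 the difference was -1.10 with an exact permutation test's adjusted p of 0.03.

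Tek (ENSMUSG00000006386, chromosome 4 from 94739289 to 94874976, plus strand) was narrow in Cav1-KO normoxia, at 88.9 to 94.6 FPKM in 5 libraries, above all 5 of Cav1-RC normoxia (51.7 to 83.5) and within the range of Control (61.6, 76.5 and 96.9; lowest, median, highest of 6). Cav1-RC was lower than Cav1-KO in normoxia by log2 -0.45 (SE 0.103, adjusted p = 0.0224), and by -0.35 both among libraries not on the list (adjusted p = 0.00821) and with the list term, where the call was lost (adjusted p = 0.0553). That call was kept without any 1 of male Cav1-RC normoxia replicate 1 or either female Cav1-RC normoxia library, and had adjusted p of 0.0541 to 0.102 without any other. Without both Cav1-RC normoxia libraries whose Xist goes against their label, Tek had -0.48 (adjusted p = 0.101) and Vegfc -0.54 (adjusted p = 0.178) in this comparison. With hypoxia Tek fell by 0.72 on the log2 scale in Cav1-KO (SE 0.0993, adjusted p = 6.67e-05), to 38.7, 59.9 and 63.6 FPKM, and its log2 fold changes were -0.35 in Control (adjusted p = 0.307) and -0.14 in Cav1-RC (adjusted p = 0.651). Once the list was a term, the fall in Cav1-KO had a log2 fold change of -0.20 (adjusted p = 0.582).

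**Figure D4:**
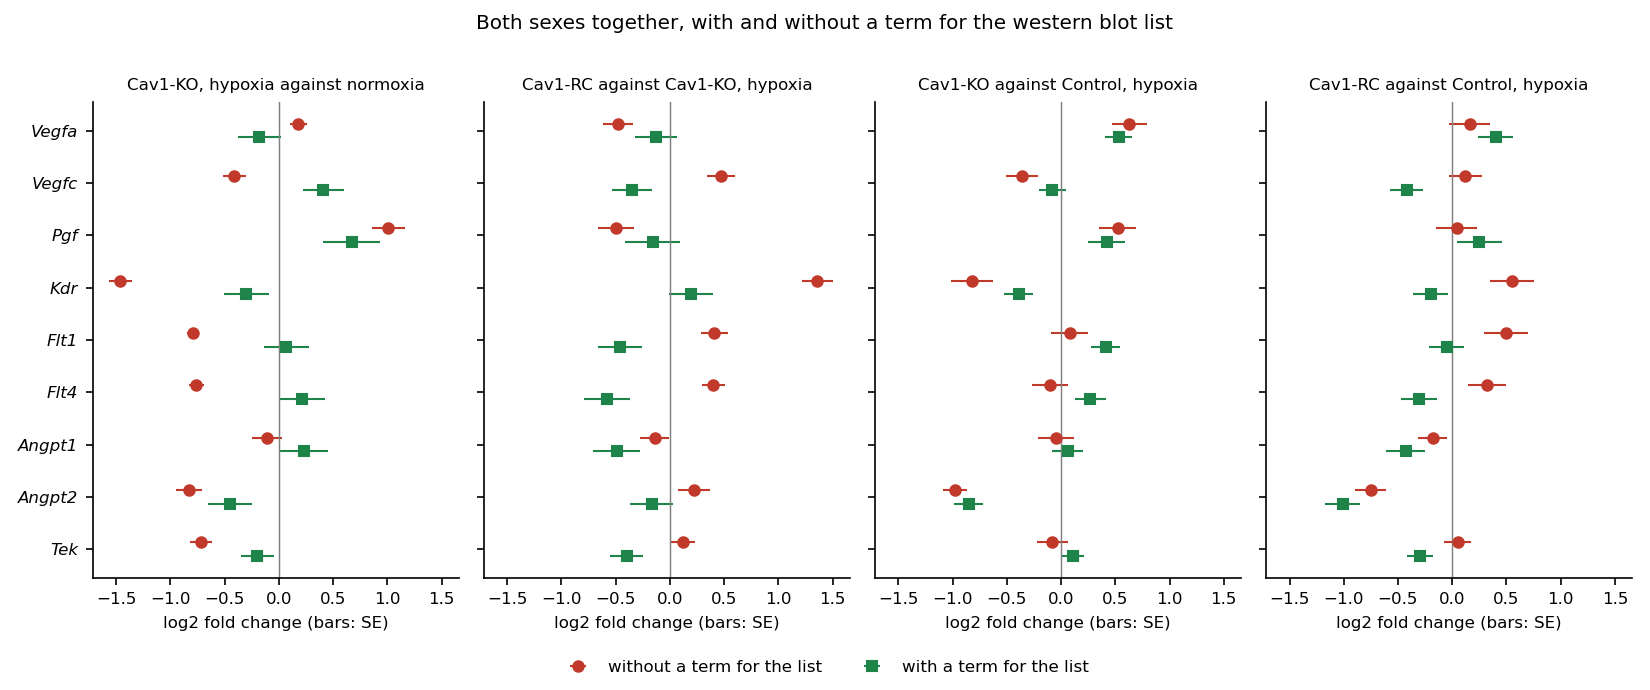
Log2 fold change of the 9 genes (x axis; bars are standard errors) in 4 comparisons of both sexes together, without a term for the western blot list (circles) and with it in 1 fit over 34 libraries (squares). Kdr goes from -1.46 to -0.30 and from 1.36 to 0.19 in the first and second panels, while Angpt2 stays at -0.98 and -0.85 in the third and -0.75 and -1.01 in the fourth.

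The difference between genotypes in the change with hypoxia was tested as such. For Cav1-KO minus Control, 3 members were called, where 20.2% of all genes were: Vegfc (-0.99), Kdr (-1.09) and Angpt2 (-0.89). All 3 calls were kept without each of the 23 libraries in turn, and Vegfc (-0.61, adjusted p = 0.0484) and Angpt2 with the list term, where Kdr had -0.52 (adjusted p = 0.121). For Cav1-RC minus Cav1-KO, 6 members were called, where 42.8% of all genes were: Vegfa (-0.44), Vegfc (0.98), Kdr (1.37), Flt1 (0.66), Flt4 (0.75) and Tek (0.58). The Vegfa call was kept without 9 of the 22 libraries, left out singly, and had adjusted p of 0.053 to 0.0945 without the others, while the other 5 were kept each time. Without the libraries whose Xist goes against their label, Flt1 had 0.59 (adjusted p = 0.0637) and Vegfa lost its call too. None of these 6 was called with the list term (0.0151% of all genes called, 0 members at an unadjusted p under 0.05), where Vegfa, Vegfc, Kdr and Tek lay between -0.06 and 0.00 and Flt1 and Flt4 at -0.38 and -0.40. For Cav1-RC minus Control, edgeR called 0 members (0.114% of all genes), 0 members had an unadjusted p under 0.05, and DESeq2 called 0. The 3 differences share libraries.

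Within each sex, the counts were as follows, without a test of the counts against each other. In males, 1 member was called in Cav1-KO against Control in normoxia (11.4% of all genes called), 3 in Cav1-RC against Cav1-KO (12.5%) and 0 in Cav1-RC against Control (4.2%; 2 at an unadjusted p under 0.05, 1 by DESeq2). In hypoxic males the counts were 1 (1.6%), 5 (44.5%) and 4 (37%) in the same order, and for male hypoxia against normoxia Control had 4 (16%), Cav1-KO had 7 (55.1%) and Cav1-RC had 3 (7.89%). In females, 6 members were called for hypoxia in Cav1-KO (38.2%) and 1, Kdr at log2 1.45, in hypoxic Cav1-RC against hypoxic Cav1-KO (20.8%). In the other 7 female comparisons edgeR called 0 members, and between 0.0175% and 0.849% of all genes: in normoxia Cav1-KO against Control (0.122%), Cav1-RC against Cav1-KO (0.1%) and Cav1-RC against Control (0.137%), in hypoxia Cav1-KO against Control (0.808%) and Cav1-RC against Control (0.849%), and hypoxia in Control (0.0175%) and in Cav1-RC (0.0285%). At an unadjusted p under 0.05 these 7 held 0, 0, 0, 4, 2, 1 and 0 members, and DESeq2 called 3 in hypoxic Cav1-KO against Control and 0 in the other 6. In the tests between the sexes, male Control hypoxia replicate 2 and male Cav1-RC normoxia replicates 1 and 2 count as males, though their Xist goes against that label. With all libraries, no difference between the sexes was called: edgeR found 0 of 9 members and 0% of all genes in each of the 9 comparisons, with 583 to 3309 genes and 0 to 4 members at an unadjusted p under 0.05, and DESeq2 called 0 members and 1 to 441 genes. These counts turned on single libraries: 1 member, Angpt1, was called in hypoxic Cav1-RC against Control without male Control hypoxia replicate 2 (0.986% of all genes). Without female Control hypoxia replicate 1, which is on the list, 4 members were called there (26.9% of all genes), 6 in hypoxic Cav1-KO against Control (29.7%) and 1 for hypoxia in Control (19%). Without female Cav1-RC normoxia replicate 2, 6 were called in normoxic Cav1-RC against Cav1-KO (33.3%) and 2 for hypoxia in Cav1-RC (8.91%).

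Angpt2 was lower in hypoxic Cav1-KO than in Control in every library of each sex. Its log2 difference was -0.93 in males, whose 6 libraries are all on the list (SE 0.128, adjusted p = 0.0192), and -1.03 in females (SE 0.189, adjusted p = 0.0645). The male call was kept without male Control hypoxia replicate 2 or male Cav1-KO hypoxia replicate 2 and had adjusted p of 0.088 to 0.115 without any other. Pgf in males rose with hypoxia by 1.23 in Control (SE 0.253, adjusted p = 0.0219), 0.98 in Cav1-KO (SE 0.201, adjusted p = 0.00327) and 0.97 in Cav1-RC (SE 0.146, adjusted p = 0.0086), the last with no library on the list and 2 of 3 normoxic libraries with a female Xist level, without which it was 1.07 (adjusted p = 0.171). The model with the list gave Pgf 0.90 (adjusted p = 0.106), 0.63 (adjusted p = 0.387) and 0.95 (adjusted p = 0.0329) in the same order, and the Control call was also lost without 3 of the 6 libraries, left out singly (adjusted p of 0.0625 to 0.0915). In female Control, Pgf had a log2 fold change of 0.22 (adjusted p = 0.878). In the Control males, Kdr, Flt1 and Tek fell by 0.87, 0.74 and 0.46 on the log2 scale with hypoxia (adjusted p = 0.0295, 0.0405 and 0.0464), all 3 hypoxic libraries being on the list and none of the normoxic ones. In the model with the list they were 0.31, 0.13 and 0.07. With each of the 6 libraries left out in turn, the Kdr and Flt1 calls were kept in 2 of 6 fits each and the Tek call in 0, and all 3 were lost with a replicate block (adjusted p = 0.0518, 0.0579 and 0.0802).

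Partners of the 9 genes were followed in 5 lists, beside the shares of all genes called given above (61.7% for hypoxia in Cav1-KO and 52.6% for Cav1-RC against Cav1-KO in hypoxia, or 1.22% and 7.98% with the list term). Among 9 partners of the VEGF family (other ligands, co-receptors and processing proteins), 7 fell and 1 rose with hypoxia in Cav1-KO, with a median log2 fold change of -0.82 against 0.02 over all genes. The co-receptor Nrp1 (-1.07), the heparan sulfate proteoglycan Gpc1 (-1.86) and Ccbe1 (-1.09), which helps to activate Vegfc, fell, and the integrin Itgb3 rose (0.92). Under the list term 1 of the 9 was called, Itgb3 (1.51, adjusted p = 0.0344), where 1.22% of all genes were, and Nrp1, Gpc1 and Ccbe1 had 0.05, -0.34 and -0.21 (adjusted p of 0.444 to 0.953). In Control 0 of these 9 were called by edgeR with hypoxia (median -0.04) and in Cav1-RC 1 (Itgb3, 0.66). Against Control in hypoxia, Cav1-KO was lower in 3 of the 9, Vegfd (-0.87), a second ligand of Flt4, Ccbe1 (-0.77) and Nrp1 (-0.75), of which Vegfd was called with the list term (-0.68, adjusted p = 0.00233). Cav1-RC was higher than Cav1-KO in hypoxia in 7 of the 9, led by Gpc1 (1.85), Ccbe1 (1.34) and Nrp1 (0.74), and in 0 by edgeR with the list term (1 at an unadjusted p under 0.05), and higher than Control in Gpc1 (1.18) and Itgb3 (0.70). In normoxia 1 of the 9, Itgav (0.57), was higher in Cav1-KO than in Control.

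Of 7 partners of the angiopoietins and Tek, Cav1-KO hypoxia differed from Control hypoxia in 2, Dok2 (0.85), an adaptor that binds activated Tek, and Svep1 (-0.88), an extracellular protein. In the model with the list these were 0.60 (adjusted p = 0.00596) and -0.40 (adjusted p = 0.137). With hypoxia in Cav1-KO 3 fell and 1 rose, and edgeR called 0 with the list term (2 at an unadjusted p under 0.05): Svep1 (-1.38), the phosphatase Ptprb (-1.02), which removes phosphate from Tek, and Foxo1 (-0.67), the transcription factor that drives Angpt2, fell, and Tnip2 rose (0.63). Cav1-RC differed from Cav1-KO in hypoxia in 5 of the 7, led by Dok2 (-1.36), Svep1 (1.03) and Tnip2 (-0.62), and with the list term in 2, both lower, Ptprb (-0.79) and Tie1 (-0.48). In normoxia, Tie1 (0.35), the partner receptor of Tek, and Foxo1 (0.42) were higher in Cav1-KO than in Control, and both were lower in Cav1-RC than in Cav1-KO (-0.32 and -0.45), as was Dok2 (-0.78). Foxo1 was also higher in hypoxic Cav1-RC than in hypoxic Control (0.30).

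Of 25 signalling proteins downstream of Kdr, 14 fell and 4 rose with hypoxia in Cav1-KO (median -0.25), with Nos3 (1.23), the endothelial nitric oxide synthase, the largest rise and the kinase Mapk14 (-1.0) among the falls. Once the list was a term, 0 of the 25 were called there by edgeR and 5 had an unadjusted p under 0.05 (Nos3 0.57, adjusted p = 0.0734; Mapk14 -0.39, adjusted p = 0.214). Nos3 rose as well in Control (1.09), together with Plcg1 (0.61), and was higher in Cav1-KO than in Control at both oxygen levels (0.87 and 1.03; in hypoxia 0.84 with the list term, adjusted p = 5.57e-06), as was the adaptor Nck1 (0.27 and 0.66). Mapk14 was lower in hypoxic Cav1-KO than in hypoxic Control (-0.48). Cav1-RC was higher than Cav1-KO in hypoxia in 10 of the 25 and lower in 5, Mapk14 (0.71) and Nos3 (-0.99) among them, and with the list term higher in 1 and lower in 2. Against Control, Cav1-RC was higher in Nos3 in normoxia (0.72) and lower in Plcg1 in hypoxia (-0.38), and Hspb1 fell with hypoxia in Cav1-RC (-0.61).

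Among 15 genes known to rise in endothelial cells on VEGF, 8 fell and 1 rose with hypoxia in Cav1-KO (median -0.64), led by Nid2 (-1.56), Cxcr4 (-1.10) and Apln (-1.03), with Esm1 at -2.28. The model with the list called 3, Esm1 (-2.38) and the Notch ligand Dll4 (-1.43) lower and Adamts1 (1.48) higher. In Control 3 fell, Esm1 (-2.54), Dll4 (-1.33) and Egr3 (-1.63), and 1 rose, Unc5b (0.75). In Cav1-RC 2 rose, Ackr3 (0.92) and Nr4a1 (1.52), and 1 fell, Cxcr4 (-0.49). In normoxia Esm1 was lower in Cav1-KO (-1.67) and Cav1-RC (-1.53) than in Control, while Aplnr (1.29) and Unc5b (0.60) were higher in Cav1-KO than in Control, and Cav1-RC was lower than Cav1-KO in Aplnr (-0.65), Dll4 (-0.44) and Nid2 (-0.87). In hypoxia, 3 were higher and 2 lower in Cav1-KO than in Control, led by Egr3 (1.15), Apln (-1.11) and Mcam (0.34), and 5 were higher in Cav1-RC than in Control, led by Egr3 (1.39), Ackr3 (0.73) and Nr4a1 (1.53). Cav1-RC against Cav1-KO in hypoxia had 8 higher and 1 lower, led by Ackr3 (1.04), Nid2 (0.91) and Dusp5 (0.91), and with the list term 2 higher and 3 lower.

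Of 15 genes of oxygen sensing, 1 was called with hypoxia in Control, Ndrg1 (0.84), 2 in Cav1-RC, Egln3 (1.32) and Ndrg1 (0.62), and 11 in Cav1-KO, of which 6 rose and 5 fell, led by the prolyl hydroxylase Egln2 (-1.31), Ndrg1 (0.75) and Ankrd37 (1.39). The list term left 1 called in Cav1-KO, Ndrg1 (1.02, adjusted p = 0.0031). In normoxia Adm (-1.5) and Slc2a1 (-0.75) were lower and Ndrg1 (0.30) higher in Cav1-KO than in Control, and Adm was lower in Cav1-RC than in Control (-1.19). In hypoxia Egln2 was lower in Cav1-KO than in Control (-0.60), Egln3 was higher in Cav1-RC than in Control (0.93), and Cav1-RC against Cav1-KO had 3 higher and 1 lower, led by Egln2 (1.15), Ankrd37 (-0.80) and Egln3 (0.85).

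The 12 pan-endothelial markers, Pecam1 and Cdh5 among them and none under 0.1 FPKM everywhere, summed to 1300, 1830 and 2070 FPKM (lowest, median, highest) in Cav1-KO hypoxia, 1390 to 1440 in Cav1-KO normoxia, 1400, 1500 and 1610 in Control hypoxia and 1270, 1350 and 1540 in Cav1-RC hypoxia. The median of Cav1-KO hypoxia was the highest of these, and its sums overlapped with those of the other 3 conditions. With hypoxia in Cav1-KO 6 of the 12 rose and 4 fell, and 2 rose and 2 fell in Cav1-KO against Control in hypoxia. Against the mean log2 level of these markers, Angpt2 was -5.20 to -4.17 in Cav1-KO hypoxia and -4.03 to -3.42 in Control hypoxia, still without overlap. In Cav1-RC hypoxia it was -4.91 to -4.00, which overlapped with Control hypoxia. Kdr was -2.72 to -1.91 in Cav1-KO hypoxia and -2.23 to -0.56 in Control hypoxia, with overlap. Against Cav1-KO normoxia, the receptors in Cav1-KO hypoxia stayed lower without overlap on this scale, with normoxia at -0.82 to -0.50 for Kdr. All of these hypoxia libraries and none of the normoxia ones are on the list, which this scale does not take into account. The share of all genes without overlap was not counted. Normoxia and then hypoxia had -1.55 to -1.31 and -2.63 to -2.22 for Flt1, -2.77 to -2.53 and -3.79 to -3.38 for Flt4, and 0.17 to 0.32 and -0.96 to -0.41 for Tek. General capillary markers (7 genes) summed to 542 to 619 FPKM in Cav1-KO normoxia and 295 to 368 in Cav1-KO hypoxia, where 4 fell and 3 rose, and to 260 to 405 in Control hypoxia. Markers of other cells moved too. In normoxia, 7 of 7 ciliated epithelium markers (medians of 309 against 551 FPKM) and 5 of 7 smooth muscle markers (140 to 164 against 166 to 346 FPKM) were lower in Cav1-KO than in Control, 4 of 7 general capillary markers were higher, and 6 of 7 ciliated epithelium and 4 of 9 leukocyte markers tested were higher in Cav1-RC than in Cav1-KO. With hypoxia in Cav1-KO, 7 of 7 ciliated epithelium markers rose (sums of 445 to 665 against 266 to 315 FPKM), as did 6 of 7 erythroid and 6 of 7 megakaryocyte markers (the latter 35.4 to 240 against 13.1 to 17.3 FPKM), and 6 of 7 alveolar type 2 markers fell (10200 to 17300 against 12900 to 14500 FPKM). In Cav1-RC against Cav1-KO in hypoxia, 6 of 7 alveolar type 2 markers (13900 to 23900 against 10200 to 17300 FPKM) and 6 of 10 leukocyte markers (173 to 631 against 78.4 to 363 FPKM) were higher, and 5 of 7 pericyte markers were lower (141 to 187 against 195 to 279 FPKM). In that comparison 4 of 7 cardiac muscle markers were higher (181 to 381 against 92.1 to 351 FPKM), while 4 of 7 erythroid markers (499 to 11900 against 2060 to 27600 FPKM) and 3 of 6 megakaryocyte markers tested were lower (31.3 to 64.2 against 35.4 to 240 FPKM), and of the 12 pan-endothelial markers 5 were lower and 2 higher. In Cav1-KO against Control in hypoxia, 6 of 7 erythroid markers were higher (sums with a median of 7300 and a highest value of 27600 FPKM against 1620 and 5810, with overlap), as were 6 of 7 megakaryocyte markers (35.4 to 240 against 12.6 to 53.8 FPKM; Gp1bb under 0.1 everywhere), and 5 of 7 alveolar type 2 markers were lower (10200 to 17300 against 17300 to 26200 FPKM). Fibroblast markers were lower in 4 of 7, and aerocyte capillary and smooth muscle markers in 2 of 7 each. In Cav1-RC against Control in hypoxia, 5 of 7 smooth muscle markers were lower and 4 of 7 cardiac muscle markers higher. Their part in the members' differences was not tested.

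As a description over the 34 libraries, which share conditions and the list, the receptors moved together: Spearman's rho was 0.92 for Flt1 with Flt4, 0.82 for Kdr with Flt1, 0.82 for Flt1 with Tek and 0.79 for Kdr with Flt4. Vegfa with Kdr gave -0.35, Pgf with Kdr -0.71 and Angpt1 with Tek 0.44. After the mean of each group was taken off, Vegfc with Kdr rose from 0.36 to 0.83, while Angpt2 with Angpt1 went from 0.30 to 0.01. Among 16030 genes, the most alike in level over the libraries were Tln2 (rho 0.946) and Prickle2 (0.944) for Kdr, Foxk1 (0.936) for Flt1, Mbtps1 (0.949) for Flt4, Ehd4 (0.939) for Tek, C1qtnf7 (0.887) for Angpt2, Lpcat3 (0.898) for Vegfc and Slc26a10 (0.878) for Pgf. Vegfa and Angpt1 had lower values, with Ccdc9b (0.786) and Acadsb (0.795) closest.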

How the data were processed

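Poly A RNA of whole mouse lung was sequenced from directional dUTP libraries. Per the submitters' processing notes and the study's methods, the authors aligned reads to mm10 with HISAT2 2.0.5 and counted them per gene with featureCounts 1.5.0-p3. The deposited values are raw counts and, from these, FPKM made by the authors, which divide by gene length and depth. Changes in a few abundant genes shift FPKM of all others, and a whole-lung value mixes cell types.

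Groups follow the labels. Counts were fitted with edgeR 4.0.16 (R 4.3.3; TMM, filterByExpr, quasi-likelihood test, Benjamini-Hochberg adjustment over the 16981 to 19538 genes tested, threshold 0.05), each comparison on its own libraries, in 18 comparisons of 1 sex, 9 of both sexes, 9 of the sexes and 3 of the genotypes. Standard errors belong to log2 fold changes. The code was tested on simulated data. Alternatives used DESeq2 1.42.0 and limma 3.58.1 on log2(FPKM + 1). Ratios were tested with Python 3.11.15 and scipy 1.17.1. Shared replicate numbers were checked: in 0 of 13 comparisons with 3 pairs did every pair correlate above 0.1 (-0.237 to 0.686), so numbers do not pair mice. No 2 libraries of a group agreed within sampling noise (lowest chi-square per gene 4.68). The precision of low counts is limited by depth, with at least 77 counts per member.

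All 9 members were described. From each of 5 partner lists, up to 3 called genes with the smallest adjusted p per comparison of both sexes were named, and the 3 genes most alike in log2 CPM over 34 libraries (mean CPM at least 1) were computed for each member. Of the genes this rule picks from the partner lists, 1 is not reported here. Itgb3, Foxo1 and Esm1 for hypoxia in Cav1-KO, Unc5b for hypoxia in Control, and genes given as called with the list term fall outside this rule and were chosen after their values were seen. The members, the 19 lists (14 of them markers) and the rule were chosen with earlier results of these data known.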

Additional observations from a re-analysis of the deposited data

Results flagged for a closer look

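The change with hypoxia differed between genotypes by the edgeR test of the difference itself for the following members, which are pulled out for that reason. For Cav1-KO minus Control these were Vegfc (-0.99 on the log2 scale), Kdr (-1.09) and Angpt2 (-0.89). For Cav1-RC minus Cav1-KO they were Vegfa (-0.44), Vegfc (0.98), Kdr (1.37), Flt1 (0.66), Flt4 (0.75) and Tek (0.58), and none of these 6 was called with the list term. All Cav1-KO hypoxia libraries are on the western blot list, and the part of the list in the Kdr, Flt1, Flt4 and Tek differences cannot be told apart from genotype within hypoxic Cav1-KO and Cav1-RC.

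Vegfa in the library of uncertain group, which no comparison used, was 323.7 FPKM, above the 12 Control libraries (at most 316 FPKM). It was within the 275 to 362 FPKM of the 5 Cav1-KO normoxia libraries.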

How the results depend on the processing

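Counts of members called are given as edgeR's count and then the alternative's, for counts that moved by over 1.5 times, and smaller moves are left out. With the list term (1 fit over 34 libraries), the Cav1-KO change with hypoxia went from 7 to 0 (females 6 to 0, males 7 to 0), Cav1-RC against Cav1-KO from 6 to 0 in hypoxia (females 1 to 0, males 5 to 0) and 2 to 0 in normoxia (males 3 to 0), the Cav1-RC minus Cav1-KO difference from 6 to 0 and the Cav1-RC minus Control difference from 0 to 1, Cav1-KO against Control from 1 to 2 in normoxia (males 1 to 3) and 0 to 1 in hypoxic females, Cav1-RC against Control in hypoxia from 0 to 2 in females and 4 to 1 in males, the Control change from 0 to 3 (females 0 to 2, males 4 to 1) and the male Cav1-RC change from 3 to 1. It turned the sign of Vegfc, Flt1 and Flt4 in Cav1-RC against Cav1-KO in hypoxia (-0.35, -0.46, -0.58; males -0.25, -0.48, -0.60), of Kdr, Flt1 and Flt4 in male Cav1-RC against Control in hypoxia (-0.14, -0.03, -0.33), of Kdr, Flt1 and Tek in the male Control change (0.31, 0.13, 0.07), of Vegfc, Flt1 and Flt4 in the Cav1-KO change (0.41, 0.07, 0.21; males 0.31, 0.05, 0.18; females 0.09 and 0.24 for Flt1 and Flt4), and of Vegfa, Vegfc, Kdr, Flt1, Flt4 and Tek in the Cav1-RC minus Cav1-KO difference (0.00, -0.00, -0.01, -0.38, -0.40, -0.06). A common fit without it moved 9 counts: males 1 to 0, 3 to 0, 5 to 2, 4 to 1 and 3 to 0, females 0 to 4 and 0 to 1, both sexes 2 to 1 and 0 to 2. DESeq2 moved 7 (1 to 5, 1 to 2, 0 to 1, 0 to 3, 1 to 3, 0 to 1, 1 to 2) and no filter 5 (1 to 3, 1 to 3, 0 to 1, 0 to 3, 1 to 2). An added absolute log2 fold change above 1 moved 18, to 2 members for hypoxia in Cav1-KO (females 2, males 1), 1 in Cav1-RC against Cav1-KO in hypoxia and 0 to 1 elsewhere. limma moved 6 filtered counts with either pseudocount (to 0 or 1) and 10 unfiltered (to 0, 1 or 3). Leaving out the term for sex moved 1 to 2 and 3 to 1, the libraries against their sex label 2 to 0, 0 to 1, 0 to 1, 3 to 0 and 1 to 0, and libraries on the list 0 to 1 and 1 to 0. With a replicate block, 4 counts moved (1 to 0 and 2 to 0 in normoxia for Cav1-KO against Control and Cav1-RC against Cav1-KO, males 0 to 1 and 4 to 1), and Vegfc, Vegfc and Tek had 0.64, -0.51 and -0.45 in the normoxia comparisons (edgeR adjusted p = 0.0854, 0.0635 and 0.0559). The fit on listed libraries alone was chosen after seeing the data. Leaving out each library in turn gave 0 to 4 members for Cav1-KO against Control in normoxia (males 0 to 6), 0 to 7 for Cav1-RC against Cav1-KO (females 0 to 5, males 0 to 3, sex difference 0 to 6), 0 to 4 for Cav1-RC against Control in males, 1 to 6 for Cav1-KO against Control in hypoxia (females 0 to 7, males 0 to 1, sex difference 0 to 6), 1 to 2 in females and 2 to 5 in males for Cav1-RC against Cav1-KO, 0 to 4 for the sex difference in Cav1-RC against Control, 0 to 1 for the Control change (males 0 to 4, sex difference 0 to 1), 3 to 7 for the female Cav1-KO change, 0 to 2 for the Cav1-RC change (males 1 to 6, sex difference 0 to 2) and 3 to 7 for the Cav1-KO minus Control difference. Without female Control hypoxia replicate 1, Cav1-KO against Control in hypoxia had 6 members (females 7) and the last difference 7. In the differences between the sexes, leaving out this library raised the share of all genes called along with the members' count, as given above. Shares of all genes are not given beside the counts with a library left out here. Whether the members moved more than other genes cannot be read from these counts. Without female Cav1-RC normoxia replicate 2, Cav1-RC against Cav1-KO in normoxia had 7, and without female Control normoxia replicate 3, Cav1-KO against Control had 4. The log2 ratio of Angpt2 to Angpt1 ranged from -0.17 to 0.02 for Cav1-RC against Cav1-KO in normoxia (0.02 off the list), from -0.01 to 0.19 for the Control change and from -1.10 to -0.78 for Cav1-KO against Control in hypoxia, and that of Kdr to Flt1 from -0.13 to 0.05 and -0.02 to 0.11 for Cav1-RC against Control in normoxia and hypoxia, -0.11 to 0.07 for the Control change, -0.01 to 0.15 for the Cav1-RC change (-0.01 off the list) and -0.74 to -0.63 for the Cav1-KO change. The cause of these moves was not tested.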

Other observations

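The library whose group its label leaves uncertain had 30930450 counts on genes, 137 of them on Cav1 (1.34 FPKM), with Xist at 36.8 and Ddx3y at 0.123 FPKM. Its members stood at 323.7 FPKM for Vegfa (41069 counts), 53.9 for Tek, 16.5 for Angpt1, 16.1 for Kdr, 13.9 for Flt1, 6.7 for Flt4, 5.43 for Vegfc, 4.24 for Pgf and 3.73 for Angpt2. Its label calls it possibly female, Cav1-KO and normoxic, and its mouse number occurs under that group in the source data for the western blots, so it shares the list with the 12 grouped libraries. Kdr and Flt1 lay within the range of those 12, and outside the 44.8 to 54.6 and 27.6 to 30.5 FPKM of the 5 Cav1-KO normoxia libraries, and Vegfc lay below all 34 grouped libraries (lowest 5.46 FPKM).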
